A study of Homo sapiens with 8 samples.

Results

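The platelet-derived growth factor (PDGF), vascular endothelial growth factor (VEGF) and hepatocyte growth factor (HGF) genes were followed in fibroblasts kept in medium from cells entering senescence. The set was chosen by gene symbol and held 10 of the 27696 genes in the count table, namely PDGFA, PDGFC, PDGFD, PDGFRA, PDGFRB, VEGFA, VEGFB, VEGFC, PGF and HGF. The recipient cells were IMR90, a primary human fibroblast strain that derives from a single fetal lung, and the labels name no construct in them. The donor cells were IMR90 ER:RAS fibroblasts, in which 4-hydroxy-tamoxifen (4-OHT) switches on a RAS oncoprotein fused to the estrogen receptor and so induces senescence. Donor medium was taken at day 0, 4, 7 or 10 of 4-OHT and left on the recipients for 3 days, which gives the group names D0, D4, D7 and D10. The D0 control medium thus also came from cells with the ER:RAS construct. There were 8 libraries, 2 per group, from 2 independent experiments numbered 1 and 2. All comparisons are against the same D0 libraries, so those of D4, D7 and D10 are not independent of each other.

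PDGF ligands are dimers that act on mesenchymal cells through the receptor tyrosine kinases PDGFRα and PDGFRβ, and they drive the proliferation and migration of fibroblasts in wound repair. PDGF-A and PDGF-C bind PDGFRα, PDGF-D binds mainly PDGFRβ, and PDGF-C and PDGF-D are secreted as latent forms that proteases must cleave. The VEGF ligands belong to the same cystine-knot superfamily as the PDGFs but act mostly on endothelial cells. HGF, also known as scatter factor, is secreted by fibroblasts and acts on epithelial and endothelial cells through the receptor MET.

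Total counts per library lay between 11708193 and 13395912. The cells had the fibroblast genes of the label, with between 16415 and 173035 counts of COL1A1 per library, and other cell types were checked by lists of markers. Of the leukocyte markers PTPRC and ITGAM had at most 1 count, CD68 had 3 to 12 and CD14 12 to 32. Of the epithelial markers CDH1 had at most 3 counts, EPCAM 7, CLDN4 12 and KRT19 26, while the keratin genes KRT8 and KRT18 had 252 to 396 and 286 to 809. The D10 library of experiment 2 stood apart. In it COL1A1, the main fibrillar collagen chain, had 1290 counts per 1000000 (CPM) against 8690 to 14500 CPM in the other 7 libraries, and the D10 differences of the genes that the results turn on are also given without it. CPM here are scaled by the TMM-normalized library size. Since the RNA came from whole cultures, fewer cells of a kind and less RNA per cell cannot be told apart.

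Across the 9 genes tested, the largest differences from D0 were lower PDGFD and PDGFRB and higher VEGFC and VEGFA. For PDGFD, PDGFRB and VEGFC the D4 libraries also lay outside the D0 range, but no gene of the set was called at D4. The main test was the quasi-likelihood test of edgeR, adjusted by Benjamini-Hochberg over all genes, with 0.05 as the threshold for a call. It called 0 of the 9 genes that passed the filter on low counts on any day. Of all 13798 genes tested, the share called was 0% for D4, 0% for D7 and 0.290% for D10. An unadjusted p under 0.05 was found for 2 of the 9 at D4, for 3 at D7 and for 3 at D10, against 2.96%, 4.34% and 7.94% of all genes. Because libraries of one experiment shared deviations from the group means, a second fit held the experiment as a replicate block. With the block the set had 0 calls at D4, 0 at D7 and 3 at D10, which were PDGFRB, VEGFA and VEGFC, against 0.275%, 1.25% and 4.99% of all genes. Without D10 replicate 2 the block called these 3 and PDGFD at D10, against 6.32% of all genes, and the fit without the block called 0, against 0.0776%. DESeq2 called 3 at D10 as well, PDGFD, PDGFRB and VEGFC, against 2.17% of the genes to which it gave an adjusted p. When the 4 groups were tested together, no gene of the set was called without the block, against 0.0870% of all genes, and VEGFC was called with it (adjusted p = 0.0248), against 3.33% of all genes. No library overlapped with D0 for 3 of the 9 genes with D4 medium, for 3 with D7 and for 4 with D10, against 22.3%, 28.9% and 31.0% of all genes. The median log2 fold change of the 9 genes was -0.081, -0.092 and -0.002 at D4, D7 and D10, and that of all genes was 0.009, 0 and 0.004.

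**Figure D1:**
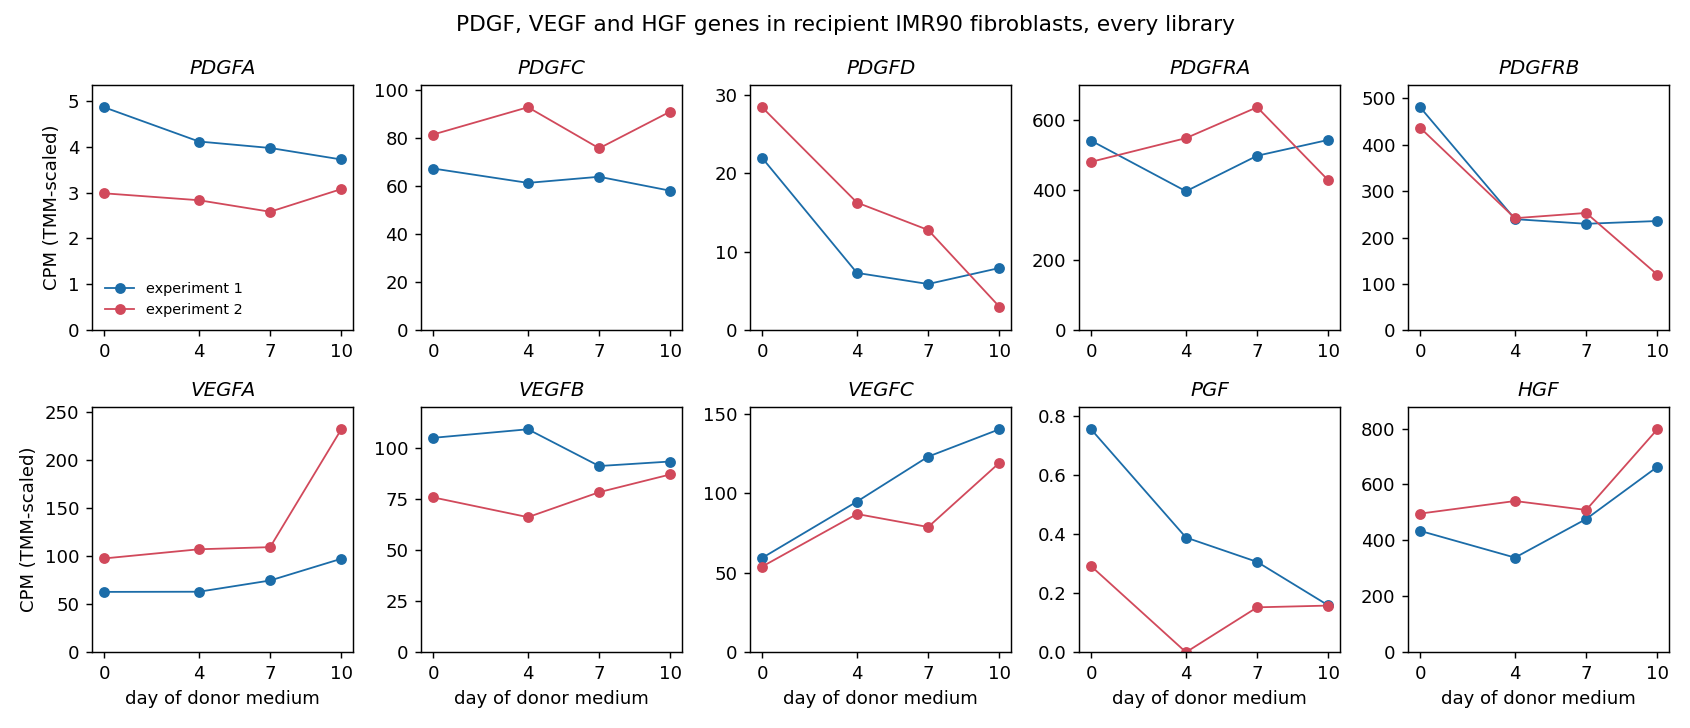
CPM (y axis, linear from 0) of the 10 genes in each of the 8 libraries against the day of the donor medium (x axis), with lines joining the libraries of experiment 1 (blue) and experiment 2 (red). PDGFD and PDGFRB were lower at D4, D7 and D10 than at D0 in both experiments, VEGFC was higher, and VEGFA reached 231.9 CPM in the D10 library of experiment 2.

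To compare levels between genes, CPM were divided by the length of the longest coding transcript in kilobases. At D0 the highest levels were those of PDGFRB, HGF and PDGFRA, with 80.3 ± 5.52, 77.7 ± 7.28 and 77.6 ± 6.51 CPM per kb (SD, 2 libraries), which did not differ beyond their spread. VEGFB followed with 65.6 ± 15.0 CPM per kb, and its library of experiment 1 lay within the range of these 3 genes. VEGFC had 27.4 ± 1.84, VEGFA 22.7 ± 6.93 and PDGFC 17.9 ± 2.40 CPM per kb, and each of these overlapped with its neighbour in the order. PDGFD was lower with 6.21 ± 1.12, PDGFA had 1.70 ± 0.580 and PGF 0.271 ± 0.170 CPM per kb. At D10 the order on the same scale was HGF with 122 ± 15.6 CPM per kb, PDGFRA with 73.7 ± 12.4, VEGFB with 65.5 ± 3.25, VEGFC with 62.8 ± 7.21, VEGFA with 46.5 ± 26.9 and PDGFRB with 31.1 ± 14.3. From the first to the sixth place PDGFRB thus passed below both VEGFC and VEGFA in the means, although VEGFA and PDGFRB overlapped at D10, as did each of the genes between PDGFRA and VEGFA with its neighbour. Per kb of all annotated exons the order of the last pair turned round, with 6.74 and 16.1 CPM per kb for VEGFA and 33.0 and 16.8 for PDGFRB at D10. Higher places also changed on that scale. At D0 VEGFB had 68.0 and 49.1 CPM per kb, PDGFRA 55.5 and 49.3, and HGF 44.2 and 50.5. At D10 PDGFRA had 55.7 and 43.9 CPM per kb, VEGFB 60.5 and 56.4, and VEGFC 57.9 and 49.2. The level of VEGFA depends most on the length used, since all its annotated exons together span 14431 bases and its longest coding transcript 3535.

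The promoter windows of PDGFRB, which was lower in senescent medium, and VEGFC, which was higher, are shown because these genes were called at D10 both with the replicate block and with DESeq2. PDGFD, which was called with DESeq2, is not shown because most of its window lies inside the annotated gene. The last bases of the PDGFRB window also do, since the annotated start of PDGFRB is at 150155872. Each window shown is the RefSeq sequence of the 250 bases before the RefSeq start on GRCh38.p14, read 5′ to 3′ on the strand of the gene. Capitals mark matches to a GC box (GGGCGG) or CCAAT box (CCAAT) on either strand. The PDGFRB window is chr5:150155846-150156095 on the minus strand and the VEGFC window chr4:176792923-176793172 on the minus strand.
PDGFRB: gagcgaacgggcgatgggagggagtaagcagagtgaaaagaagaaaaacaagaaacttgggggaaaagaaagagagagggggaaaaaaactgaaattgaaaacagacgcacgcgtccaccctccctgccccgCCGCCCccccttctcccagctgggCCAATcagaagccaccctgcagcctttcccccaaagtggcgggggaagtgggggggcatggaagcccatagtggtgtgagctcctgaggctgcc
VEGFC: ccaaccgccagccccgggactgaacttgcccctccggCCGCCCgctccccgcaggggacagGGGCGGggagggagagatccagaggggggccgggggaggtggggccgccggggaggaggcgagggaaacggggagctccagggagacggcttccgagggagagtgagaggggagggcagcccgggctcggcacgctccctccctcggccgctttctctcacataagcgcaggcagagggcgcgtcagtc
The PDGFRB window held 1 GC box, starting at position -118 from the start, and 1 CCAAT box at -94, and 58.4% of its bases were G or C. The VEGFC window held 2 GC boxes, at -213 and -189, no CCAAT box, and 74.0% G or C. A GC box was found in 6 of the 8 windows matched to the set and in 42.6% of all 35116 windows, and a CCAAT box in 1 of 8 and in 32.0%. An AP-1 motif (TGANTCA) was found in 1 of the 8, that of PDGFRA, and in 6.57% of all windows. A TATA box (TATAAA), an NF-κB motif and a hypoxia response core (ACGTG) were found in 0 of the 8 windows and in 10.7%, 5.07% and 18.5% of all. No window was matched for VEGFA and PDGFC. The RefSeq starts differ from the annotated starts given with each gene. All windows but that of VEGFC reach into the annotated gene. That of HGF lies wholly inside it, and those of PDGFD and PDGFRA mostly, with the AP-1 motif of PDGFRA. The motif counts thus do not describe upstream sequence alone.

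Of the PDGF ligands in the set, PDGFD had the largest difference, and PDGFA and PDGFC lay close to their D0 levels. The ligand gene PDGFB, which is outside the set, had log2 fold changes of 1.09 at D7 and 0.57 at D10 and was not called. PDGFD (ENSG00000170962.12, chromosome 11 from 103907186 to 104164379, minus strand of GRCh38) encodes the latent ligand that activates PDGFRβ. It had 21.95 and 28.4 CPM at D0 in experiments 1 and 2, 7.30 and 16.25 CPM at D4, 5.88 and 12.8 CPM at D7, and 7.92 and 3.00 CPM at D10. All libraries of D4, D7 and D10 were below both D0 libraries, and in experiment 1 the level at D10 was above that at D7. The log2 fold change was -1.10 at D4, -1.43 at D7 and -2.20 at D10 (standard errors 0.56, 0.57 and 0.59), and at D10 this is 4.61-fold lower. The adjusted p at D10 was 0.215 in edgeR, 0.050005 with the replicate block, just above the threshold, and 0.00749 with DESeq2. Without D10 replicate 2 the log2 fold change was -1.67, and without D10 replicate 1 it was -3.05. With the block and without D10 replicate 2 it was -1.24 (adjusted p = 0.0162). Exons of DDI1 on the opposite strand cover 4.52% of the PDGFD exon bases.

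PDGFC (ENSG00000145431.10, chromosome 4 from 156760454 to 156971394, minus strand) encodes the latent ligand for PDGFRα. It had 67.4 and 81.5 CPM at D0 and 58.1 and 91.1 CPM at D10, so the D10 libraries lay on either side of those of D0. Its log2 fold change at D10 was 0.003, with a 95% interval from -0.69 to 0.70, or from 0.620-fold to 1.62-fold. Experiment 2 was above experiment 1 in every group, by 0.275, 0.597, 0.245 and 0.647 on the log2 scale at D0, D4, D7 and D10. PDGFA (ENSG00000197461.13, chromosome 7 from 497258 to 520296, minus strand) encodes another PDGFRα ligand and was low, with between 34 and 58 counts per library. Its values were 4.86 and 2.98 CPM at D0 and 3.72 and 3.08 CPM at D10, and its log2 fold change at D10 was -0.20 with a 95% interval from -1.16 to 0.75. For PDGFA the 2 experiments differed more at D0 than the groups did in either experiment.

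The PDGF receptors had different courses. PDGFRB (ENSG00000113721.13, chromosome 5 from 150113837 to 150155872, minus strand) encodes PDGFRβ, which marks fibroblasts, pericytes and smooth muscle cells. It had 481 and 437 CPM at D0, 240 and 242 CPM at D4, 230 and 253 CPM at D7, and 236 and 120 CPM at D10. The D4 and D7 libraries of both experiments were within 230 to 253 CPM and below both D0 libraries, and the D10 library of experiment 2 was lower again while that of experiment 1 was not. The log2 fold change was -0.93 at D4, -0.93 at D7 and -1.37 at D10 (standard errors 0.32, 0.32 and 0.33). The adjusted p at D10 was 0.151 in edgeR, 0.0181 with the replicate block and 0.00691 with DESeq2. Without D10 replicate 1 PDGFRB was called (log2 fold change -1.92, adjusted p = 0.0312 in edgeR), and without D10 replicate 2 it was not (-0.96, adjusted p = 0.404). With the block and without D10 replicate 2 it was called (-0.96, adjusted p = 0.00503).

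PDGFRA (ENSG00000134853.11, chromosome 4 from 54229097 to 54298247, plus strand) encodes PDGFRα, a common marker of lung fibroblasts. It had 540 and 480 CPM at D0, 396 and 548 CPM at D4, 497 and 636 CPM at D7, and 542 and 427 CPM at D10, and in each comparison the libraries overlapped with those of D0. Its log2 fold change was -0.11, 0.15 and -0.07 on the 3 days, and the 95% interval at D10 ran from -0.72 to 0.57. A gene on the same strand overlaps 15.8% of its exon bases, so counts could be shared. Within a library the ratio of PDGFRB to PDGFRA does not depend on library scaling. In CPM per kb the D0 ratio was 1.02 and 1.05, that of D4 0.696 and 0.508, that of D7 0.532 and 0.458, and that of D10 0.499 and 0.324. The ratio was lower on each later day than on the day before it in both experiments. After D4 this was not a steady fall of PDGFRB. In experiment 1 PDGFRB lay between 230 and 240 CPM from D4 to D10, while PDGFRA went from 396 to 542 CPM. In experiment 2 both genes were higher at D7 than at D4 and lower again at D10. With 2 libraries a group the ratio was not tested.

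**Figure D2:**
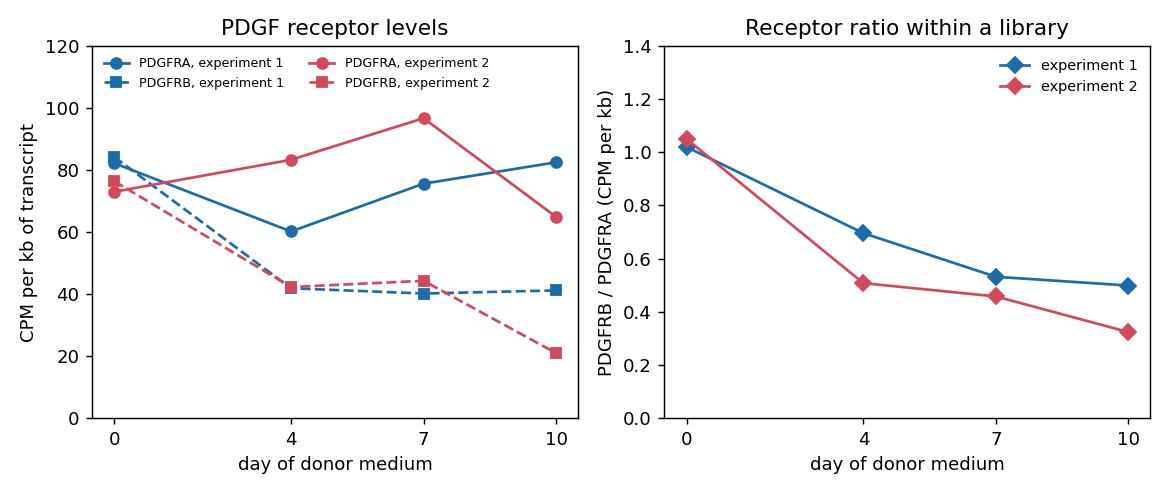
Left, CPM per kb of transcript of PDGFRA (circles, solid lines) and PDGFRB (squares, dashed lines) in each library against the day of the donor medium, and right, the ratio of PDGFRB to PDGFRA within each library, with experiment 1 in blue and experiment 2 in red. The ratio went from 1.02 and 1.05 at D0 to 0.499 and 0.324 at D10.

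The D10 library of experiment 2, in which PDGFRB was lowest, also had the lowest COL1A1 and DCN of the 8 libraries. The 9 listed fibroblast markers summed to 32300 to 45800 CPM at D0 and to 9590 to 34000 CPM at D10, with 8 of 9 lower at D10 in both experiments and 0 called. With the block, the proteoglycan gene LUM was called at D7 (adjusted p = 0.0408) and the proteoglycan gene DCN at D10, at 4340 and 3590 CPM at D0 and 2140 and 572 CPM at D10 (log2 fold change -1.75, adjusted p = 0.0362). The block called 1.25% of all genes at D7 and 4.99% at D10. Without D10 replicate 2 the block gave -1.09 for DCN. The list sum at D10 was then the 34000 CPM of replicate 1, within the D0 range but below the 45800 CPM of D0 replicate 1. The pericyte markers, a list of 5 genes of which 3 were tested, summed to 267 to 398 CPM at D0 and 255 to 289 CPM at D10, with 0 called. The part of these genes in the PDGFRB difference was not tested. At D4, where PDGFRB was already 1.91-fold lower, the fibroblast list summed to 34300 CPM in experiment 1 and 30900 CPM in experiment 2. At D0 these sums were 45800 and 32300 CPM.

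Among the VEGF ligands, VEGFC and VEGFA were higher at D10, VEGFB lay close to its D0 level and PGF was near the limit of detection. VEGFC (ENSG00000150630.3, chromosome 4 from 176683538 to 176792727, minus strand) encodes the ligand of FLT4 that drives the growth of lymphatic vessels. It had 59.2 and 53.8 CPM at D0, 94.7 and 86.9 CPM at D4, 123 and 78.7 CPM at D7, and 140 and 119 CPM at D10. Every library of D4, D7 and D10 was above both D0 libraries, and in experiment 1 each day was above the one before. The log2 fold change was 0.68 at D4, 0.83 at D7 and 1.20 at D10 (standard error 0.26 on each day), or 1.61-fold, 1.78-fold and 2.29-fold higher. The adjusted p was 1.00, 0.693 and 0.118 in edgeR, and 0.179, 0.0655 and 0.00512 with the replicate block. DESeq2 gave 0.00738 at D10. At D10 it was 2.36-fold higher in experiment 1 and 2.21-fold in experiment 2, and its log2 fold change lay between 1.09 and 1.31 when any 1 library was left out.

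VEGFA (ENSG00000112715.21, chromosome 6 from 43770184 to 43786487, plus strand) encodes the main inducer of blood vessel growth. It had 62.8 and 97.5 CPM at D0, 62.9 and 107 CPM at D4, 74.6 and 109 CPM at D7, and 97.2 and 231.9 CPM at D10. The D10 library of experiment 1 was below the D0 library of experiment 2, so the groups overlapped, but within each experiment the level was higher on each later day, by as little as 62.8 to 62.9 CPM from D0 to D4 in experiment 1. The D10 level was 1.55 times that of D0 in experiment 1 and 2.38 times in experiment 2, and from D7 to D10 it was 1.30 and 2.12 times. The log2 fold change at D10 was 1.04 (standard error 0.47), with an adjusted p of 0.652 in edgeR. With the replicate block it was 0.96 (adjusted p = 0.0213), and DESeq2 gave an adjusted p of 0.516. Without D10 replicate 2 the log2 fold change was 0.28, and with the block it was 0.64 (adjusted p = 0.0365). The same course of a higher level at every step in both experiments was seen in 1.33% of all genes tested.

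VEGFB (ENSG00000173511.9, chromosome 11 from 64234538 to 64238793, plus strand) encodes a ligand of FLT1. It had 105 and 75.9 CPM at D0 and 93.5 and 87.2 CPM at D10, with a log2 fold change of -0.002 and a 95% interval from -0.67 to 0.67. PGF (ENSG00000119630.13, chromosome 14 from 74941834 to 74955784, minus strand) encodes placental growth factor, another FLT1 ligand. Its counts were 9 and 4 in the D0 libraries, 5 and 0 in those of D4, 4 and 2 in those of D7, and 2 and 2 in those of D10, and it did not pass the filter on low counts. The count of 0 allows a level of up to 0.224 CPM, taking 3 counts as the limit. Without a filter edgeR gave a log2 fold change of -1.64 at D10 (adjusted p = 1.00), so a change in PGF was not detectable at this depth.

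HGF (ENSG00000019991.15, chromosome 7 from 81699008 to 81770438, minus strand) was among the most abundant genes of the set and was higher with D10 medium. It had 434 and 496 CPM at D0, 338 and 541 CPM at D4, 476 and 509 CPM at D7, and 663 and 797 CPM at D10. Both D10 libraries were above all 6 others, and those of D4 and D7 overlapped with D0. The log2 fold change was -0.08 at D4, 0.08 at D7 and 0.65 at D10 (standard error 0.29 on each day), which is 1.57-fold higher at D10. The adjusted p at D10 was 0.649 in edgeR, 0.104 with the replicate block and 0.613 with DESeq2. From D7 to D10 the level was 1.39 times in experiment 1 and 1.57 times in experiment 2, and this step was not tested.

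**Figure D3:**
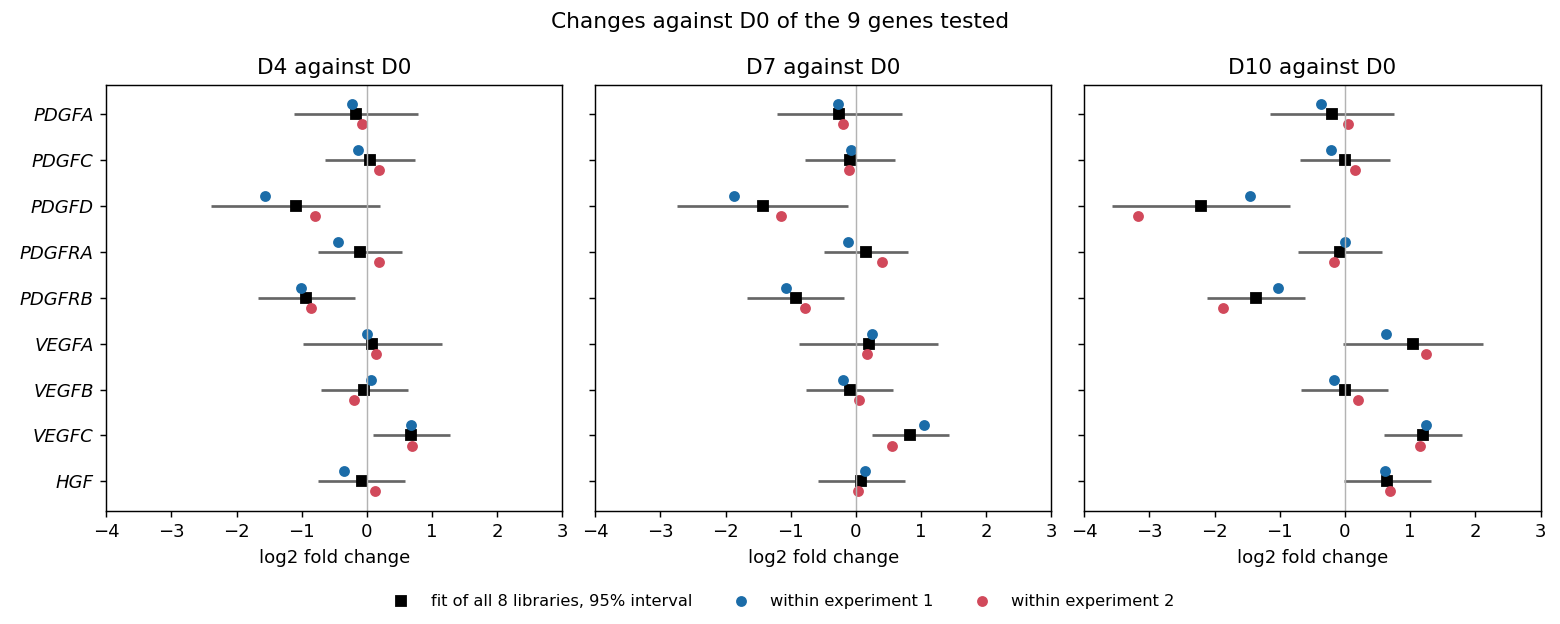
Log2 fold changes against D0 (x axis) of the 9 genes tested at D4, D7 and D10, with the edgeR fit of all 8 libraries as black squares with 95% intervals and the changes within experiment 1 (blue) and experiment 2 (red) as points. At D10 the intervals of PDGFD, PDGFRB and VEGFC do not include 0 before adjustment, and those of the other 6 genes do.

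The receptors for the VEGF ligands were scarce in these fibroblasts. KDR, the main VEGFA receptor, had at most 3 counts in any library, FLT4 had at most 8, and FLT1 had between 24 and 171. FLT1 had the largest D10 difference of the list of other ligands and receptors, with a log2 fold change of -1.66 (adjusted p = 0.597 in edgeR, 0.175 with the block), -0.59 in experiment 1 and -2.62 in experiment 2. KDR, FLT4, NRP1, NRP2 and MET are named here after their values were seen. NRP1, a neuropilin and VEGF co-receptor, had 72.5 and 78.2 CPM at D0, 141 and 229 CPM at D4, 207 and 181 CPM at D7, and 182 and 95.6 CPM at D10. All later libraries of NRP1 were above both of D0, with a log2 fold change of 1.37 at D7 (adjusted p = 0.529 in edgeR, 0.107 with the block and 0.0416 with DESeq2). The share of all genes that DESeq2 called at D7 is not given here. NRP2, the other neuropilin, had 155 and 157 CPM at D0, 86.8 and 111 CPM at D4, 118 and 160 CPM at D7, and 182 and 157 CPM at D10. Its D4 libraries were both below those of D0, with a log2 fold change of -0.66 (adjusted p = 1.00 in edgeR, with the block 0.252). MET, the HGF receptor, had 58.2 and 61.9 CPM at D0 and 36.2 and 33.0 CPM at D10, a log2 fold change of -0.79 (adjusted p = 0.366, with the block 0.0817). Of the 11 genes of this list 7 were tested, and 0 were called on any day in edgeR with or without the block. Their median log2 fold change at D10 was 0.12, against 0.004 for all genes. Of the endothelial markers PECAM1 had at most 13 counts in any library, TIE1 6, CDH5 5 and CLDN5 2, VWF had between 10 and 31, and TEK between 520 and 1522. Of 6 listed endothelial markers 2 were tested and 0 called, and of 6 leukocyte markers 2 were tested and 0 called. Of 6 epithelial markers 3 were tested and 0 called. With the block the keratin gene KRT18 was lower at D10, with 53.9 and 36.3 CPM at D0 and 28.7 and 22.6 CPM at D10 (adjusted p = 0.0220), against 4.99% of all genes called.

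Proteases that activate the latent ligands had the largest differences of the pathway genes. The list of ligand processing genes and their inhibitors held 12 genes, of which 9 were tested, and 2 rose and 0 fell at D10. Both were plasminogen activators. PLAT encodes tissue plasminogen activator, which is known to cleave latent PDGF-C, and it had 985 and 918 CPM at D0, 2600 and 3350 CPM at D4, 3450 and 6460 CPM at D7, and 7480 and 11800 CPM at D10. Its log2 fold change was 3.34 at D10 (standard error 0.45, adjusted p = 0.0402 in edgeR), or 2.97 without D10 replicate 2, where it was not called (adjusted p = 0.0862, with the block 4.71e-06), and the block also called it at D7 (adjusted p = 0.0135). PLAU encodes urokinase, which is known to activate PDGF-D and HGF, and it had 1180 and 1000 CPM at D0 and 6450 and 4250 CPM at D10. Its log2 fold change was 2.29 (standard error 0.33, adjusted p = 0.0480 in edgeR), or 2.56 without D10 replicate 2 (adjusted p = 0.0473), and the block called PLAU at D7 too (adjusted p = 0.0300). The other 7 tested genes, among them the convertase genes FURIN, PCSK5 and PCSK7 and the VEGF-C processing genes ADAMTS3 and CCBE1, had log2 fold changes between -0.35 and 0.89 and were not called. The median of the list was 0.14.

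**Figure D4:**
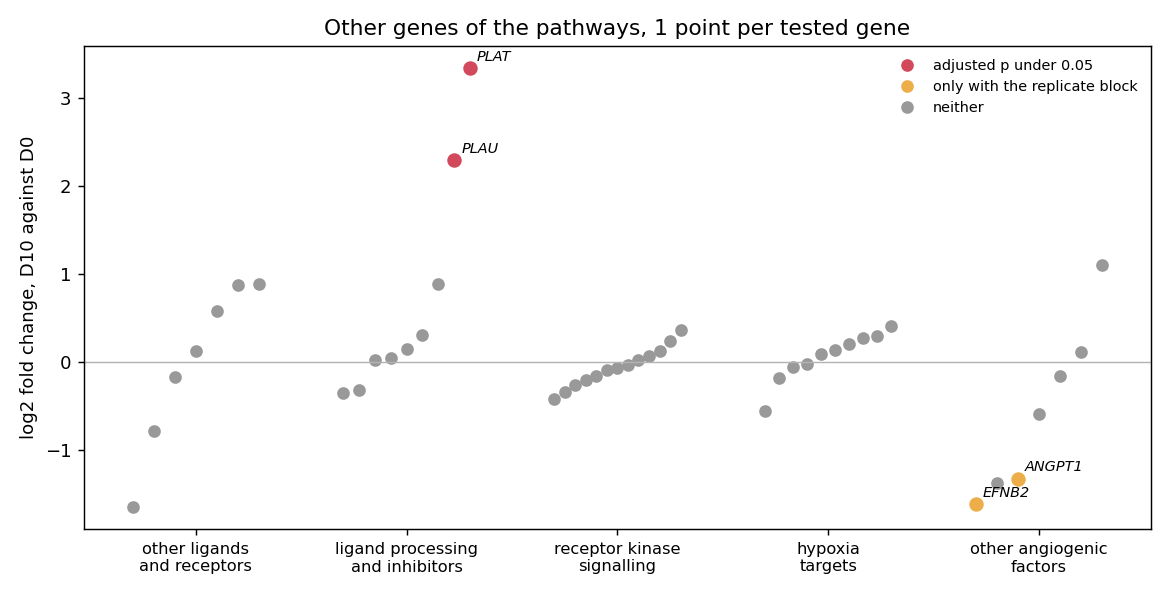
Log2 fold change at D10 against D0 (y axis) of each tested gene of 5 lists (x axis), with 1 point per gene, red where the adjusted p in edgeR was under 0.05, yellow where this held only with the replicate block and grey otherwise. PLAT and PLAU are the called genes, at 3.34 and 2.29, and EFNB2 and ANGPT1 are below 0 in yellow.

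Genes that carry the signal inside the cell stayed closer to their D0 levels. All 13 genes of the receptor tyrosine kinase signalling list were tested, with 0 called on any day with or without the block. Their log2 fold changes at D10 lay between -0.42, for the adaptor gene GAB1, and 0.36, for the ubiquitin ligase gene CBL, and the median was -0.07. VEGFA is a known hypoxia target, and of 12 other hypoxia targets 10 were tested and 0 called on any day with or without the block. Their median at D10 was 0.11, and the largest difference was that of the glucose transporter gene SLC2A1, at -0.56 (adjusted p = 0.918 in edgeR). Of 10 other genes that act for or against vessel growth, among them the inhibitor genes VASH1 and SERPINF1, 7 were tested and 0 were called without the block. With the block 0 were higher and 2 lower at D10, against 4.99% of all genes called. At D7 the block called 1, ANGPT1, as lower (log2 fold change -1.86, adjusted p = 0.0298), against 1.25% of all genes. EFNB2, which encodes the membrane ligand ephrin-B2, had 29.2 and 38.1 CPM at D0 and 12.7 and 9.15 CPM at D10, a log2 fold change of -1.62 (adjusted p = 0.0779, with the block 0.00937). ANGPT1 encodes angiopoietin-1, the TEK ligand that stabilizes vessels, and it had 83.6 and 172 CPM at D0 and 43.8 and 57.7 CPM at D10, a log2 fold change of -1.33 (adjusted p = 0.385, with the block 0.0451). With the block and without D10 replicate 2 ANGPT1 was not called (adjusted p = 0.0543), and EFNB2 was (adjusted p = 0.00737). The median of this list at D10 was -0.59. Since the list mixes genes that act for and against vessel growth, this median gives no direction for that process.

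The genes whose log2 CPM followed VEGFC most closely over the 8 libraries were PLCXD1, ENO2, HBEGF, GRAMD1B and MRM3, with Pearson's r between 0.977 and 0.990. ENO2, a glycolytic enzyme gene, had 38.9 and 34.6 CPM at D0 and 78.6 and 72.3 CPM at D10, and HBEGF, an EGF receptor ligand gene, had 14.5 and 13.2 CPM at D0 and 48.1 and 33.9 CPM at D10. Among the genes that followed PDGFD most closely were CSTF2T, C3orf38, ID2 and CCDC170, with r between 0.958 and 0.979. ID2, an inhibitor of helix-loop-helix transcription factors, had 24.2 and 26.1 CPM at D0 and 7.52 and 5.13 CPM at D10. CSTF2T ran in parallel with PDGFD over a much smaller range, from 27.1 CPM in the highest library to 18.8 CPM in the lowest. These values are the highest among 13798 genes over 8 libraries that share 4 groups and 2 experiments, and they are given as a description.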

How the data were processed

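RNA from 8 cultures was poly(A)-selected and made into stranded libraries per the labels. The submitters' processing notes name STAR 2.5, DESeq2 and GRCh38, and the counter and its strand setting are not given in the sources used here. Per gene, the authors deposited raw counts together with RPM (reads per 1000000), and 100% of the deposited RPM values were within 0.006 of the count scaled to the library total, so tests used the counts alone. The header of 1 column reads DO and was taken as D0 replicate 1. Genes were filtered with filterByExpr, scaled with TMM and fitted by group over all 8 libraries with edgeR 4.0.16 (glmQLFit and glmQLFTest, R 4.3.3), with Benjamini-Hochberg adjustment over 13798 genes. Standard errors and 95% intervals were derived from the quasi-likelihood F statistic. Log2 CPM within an experiment used a prior count of 2. Leaving out D10 replicate 2 together with the block was added after seeing the data. The other alternatives were the replicate block, DESeq2 1.42.0, its size factors, other filters, the compared groups only and leaving out each library. The numbers pair the libraries: the labels describe 2 independent experiments, and for the 6 pairs of groups, the deviations of same-numbered libraries had an r across genes of 0.418 to 0.722. The scripts were tested on simulated counts with genes changed 2-fold or 4-fold at D10. For each gene the simulated experiment effect was the same in all 4 groups, and the dispersion was that of the fit with the block. This setting favours the block, so the shares do not rank the fits on the real counts. The fit without the block recovered 0% and 12% of the changed genes, that with the block 68% and 100%, and DESeq2 5% and 86%. False calls were 6 of 174 calls with the block, 0 without it and 0 with DESeq2. A gene not called in the main test is thus not shown to be unchanged. Positions and lengths come from GENCODE 29, which holds 99.6% of the identifiers, and promoters from RefSeq (GRCh38.p14), with 8 of 10 genes matched. The genes and lists were chosen with earlier results of these data known. From each list the rule named the genes called with or without the block, or else the one with the largest D10 change, and the other list genes in the text were named after their values were seen. The rule also took for VEGFC and PDGFD the 5 most correlated genes, 1 of which is not reported here.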

Additional observations from a re-analysis of the deposited data

How the results depend on the processing

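The number of genes of the set called at D10 was 0 as reported, 3 with the replicate block, 3 with DESeq2 and 3 without a filter on low counts, with PDGFRB and VEGFC in each of these 3 settings, and it lay between 0 and 1 when 1 library was left out, the 1 being PDGFRB without D10 replicate 1. For any difference among the 4 groups it was 0, and 1 with the replicate block (VEGFC), 1 with DESeq2 (PDGFRB) and 1 without a filter (PDGFD), a different gene each time. The cause was not tested. The other settings called 0 genes of the set, and D4 and D7 had 0 under all settings. Of all genes the block called 4.99% at D10 and 3.33% among the 4 groups. DESeq2 called 2.17% at D10 of the genes to which it gave an adjusted p. No share over all genes was taken for DESeq2 among the 4 groups or for the setting without a filter. At D10 PDGFC reversed with the replicate block (-0.0234), and VEGFB with the block (0.0204), DESeq2 (0.00147), DESeq2 size factors (0.00346), no filter (0.00401), a minimum of 10 counts in each library (0.000339) and the compared groups only (0.0104). Of 216 values with 1 library left out, 31 reversed, and none of these was called. Leaving out 1 library, the log2 fold changes at D4 ranged from -0.485 to 0.223 for PDGFA, -0.276 to 0.315 for PDGFC, -0.363 to 0.0994 for PDGFRA, -0.346 to 0.437 for VEGFA, -0.453 to 0.274 for VEGFB and -0.456 to 0.214 for HGF. At D7 they ranged from -0.593 to 0.132 for PDGFA, -0.225 to 0.0511 for PDGFC, -0.0344 to 0.321 for PDGFRA, -0.101 to 0.55 for VEGFA, -0.309 to 0.158 for VEGFB and -0.012 to 0.181 for HGF, and at D10 from -0.52 to 0.186 for PDGFA, -0.357 to 0.308 for PDGFC, -0.238 to 0.0893 for PDGFRA and -0.223 to 0.251 for VEGFB. Without D10 replicate 2, a choice made after seeing the data, the replicate block reversed PDGFRA (0.187) and VEGFB (-0.169) at D10, neither called, and PLAT in the fit without the block and ANGPT1 in that with it were no longer called. PGF, with at most 9 counts in a library, was too low to test.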
